A study of Mus musculus with 11 samples.

Results

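The genes described here are 7 genes of cholesterol synthesis and its control, taken by symbol from a list drawn up with earlier results of these data known: Hmgcs1, Idi1, Fdft1, Sqle and Lss, which encode enzymes, and Insig1 and Srebf2, which encode regulators. All 7 were found among the 18305 genes of the count table and their counts were taken from each of its 27 libraries. The libraries fell into 8 groups. From wild-type C57BL/6 mice came 3 libraries of oviduct tissue, 3 of tissue labelled as ovarian surface epithelium (OSE), 3 of oviductal organoids and 2 of OSE organoids. A further 3 were oviductal organoids of Cas9-GFP mice, which carry a Cas9-P2A-EGFP cassette at ROSA26 and express it ubiquitously. TBP clones (3 libraries) were oviductal organoids grown from Cas9-GFP cells in which tumor suppressor genes, Trp53 and Brca1 among them, had been targeted with guide RNAs, selected with Nutlin-3a and expanded as clones. TBP tumors (6 libraries) had grown from oviductal TBP clones transplanted into immunodeficient NSG mice, so that the tumor RNA holds that of the host's stroma and vessels as well. Tumor organoids (4 libraries) were cultures of such tumors: T2-epi and T4-epi were epithelial, while T1-mes and T3-mes mixed epithelial and fibroblast-like cells. Their medium contained Nutlin-3a from derivation on, to favor tumor cells over host cells. Unless stated otherwise, the study grew oviductal and OSE organoids alike with R-spondin, Noggin, EGF, WNT and estrogen. Tissues were extracted with Trizol and organoids with a column kit, so that culture, medium and extraction cannot be told apart in any comparison of organoids with tissue.

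Cholesterol is built from acetyl-CoA through the mevalonate pathway. Hmgcs1 makes HMG-CoA, from which mevalonate is formed; Idi1 isomerises the isoprene unit; Fdft1 joins isoprenoids into squalene; Sqle oxidises squalene, and Lss closes it into lanosterol, the first sterol. When sterols are scarce in the endoplasmic reticulum, the transcription factor SREBP-2, the product of Srebf2, is carried by SCAP to the Golgi, cleaved there, and turns on the genes of the pathway. Insig1 holds SCAP back when sterols are plentiful and is itself a target of the factor. Cells of the ovary that make steroid hormones use cholesterol as their raw material.

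In GENCODE vM21 (GRCm38) all 7 genes are protein-coding. Hmgcs1 lies on chromosome 13 (119690379 to 119708260, plus strand), Idi1 on chromosome 13 (8885501 to 8892451, plus), Fdft1 on chromosome 14 (63145150 to 63179578, minus), Sqle on chromosome 15 (59315077 to 59331192, plus), Lss on chromosome 10 (76531588 to 76557138, plus), Insig1 on chromosome 5 (28071363 to 28078662, plus) and Srebf2 on chromosome 15 (82147181 to 82205379, plus). The end of Fdft1 overlaps Ctsb on the other strand, and the reads had been counted by direction of transcription. RefSeq windows of 300 bases around the start site (GRCm38.p6, 250 bases before and 50 after) were found for 5 of the 7, and for 13 of 16 other enzymes of the pathway. The windows of Hmgcs1, Srebf2 and Insig1 are shown because they carry, respectively, a full match to the sterol regulatory element that SREBP factors bind, a shorter match, and no match. Capitals mark TCACCCCA, the shorter form of the element, and ATTGG, the CCAAT box read on the opposite strand.
Hmgcs1, chr13:119690101-119690400, plus strand: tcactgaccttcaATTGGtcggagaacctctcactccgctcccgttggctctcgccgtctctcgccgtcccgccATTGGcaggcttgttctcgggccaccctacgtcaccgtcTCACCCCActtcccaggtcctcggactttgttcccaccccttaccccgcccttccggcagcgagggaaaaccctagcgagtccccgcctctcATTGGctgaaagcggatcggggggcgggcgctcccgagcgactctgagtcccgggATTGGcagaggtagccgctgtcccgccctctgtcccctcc
Srebf2, chr15:82147019-82147318, plus strand: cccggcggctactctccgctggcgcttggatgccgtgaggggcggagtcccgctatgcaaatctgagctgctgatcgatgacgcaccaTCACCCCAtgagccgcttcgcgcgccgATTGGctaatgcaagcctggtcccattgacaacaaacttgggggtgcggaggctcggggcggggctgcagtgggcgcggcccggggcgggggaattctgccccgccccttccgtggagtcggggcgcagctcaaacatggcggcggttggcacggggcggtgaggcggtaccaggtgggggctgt
Insig1, chr5:28071162-28071461, plus strand: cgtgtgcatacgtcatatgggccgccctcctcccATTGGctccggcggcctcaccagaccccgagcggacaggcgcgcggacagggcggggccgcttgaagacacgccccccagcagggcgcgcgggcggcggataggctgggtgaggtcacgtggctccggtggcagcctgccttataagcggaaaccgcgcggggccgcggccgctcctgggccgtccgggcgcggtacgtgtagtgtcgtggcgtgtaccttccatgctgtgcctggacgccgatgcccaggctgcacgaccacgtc

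The element written as TCACNCCAC, searched on both strands, was present in 1 of 5 members, Hmgcs1 at position -137 from the start, in 0 of 13 other enzymes and in 1.44% of all 27025 genes with a window. Its shorter form TCACCCCA, which overlaps the first and was chosen after the Srebf2 window had been seen, was present in 2 of 5 members, Hmgcs1 and Srebf2 (position -162), in 0 of 13 other enzymes and in 1.77% of all genes. A CCAAT box stood in the windows of 5 of 5 members and 12 of 13 other enzymes, against 41.1% of all genes, and a GC box (GGGCGG) in 5 of 5 and 12 of 13, against 38.2%. Hmgcs1 had 4 CCAAT boxes in its window, Idi1 2, and Insig1, Lss and Srebf2 1 each. These matches describe the letters of the windows only.

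RNA had been read by CEL-Seq2, a bulk method that counts tags near the 3′ end of transcripts, so that levels are compared between libraries and never between genes. Levels are given in CPM (counts scaled to library size, with TMM factors over all 27 libraries), and fold changes come from the fit of the libraries compared. The shallowest library, TBP clone 1, held 82239 counts and the deepest, TBP clone 3, 4531767. Where a gene had 0 reads, up to 3 reads remain possible, or 33.5 CPM in TBP clone 1 and 0.684 to 5.18 CPM elsewhere, a limit that covers counting error only. Lss and Srebf2 were shallow: Srebf2 never exceeded 49 reads in a library. The study describes its libraries as independent tissue samples, organoid lines and tumors, with several mice behind each oviductal or OSE organoid line. It reports fewer independent TBP clones than there are TBP clone libraries, so that some may share a clone. The tumor organoid lines trace to the same original TBP clone, and each transplanted mouse received the same clone on both sides. For clones, tumors and tumor organoids the p-values may therefore not measure the spread between separate clones or mice. Whether each tissue library came from its own animal is not given in the sources used here. The p-values measure the spread between these samples, which may in part be technical. In bulk RNA, fewer cells of a type and less RNA per cell cannot be told apart.

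**Figure D1:**
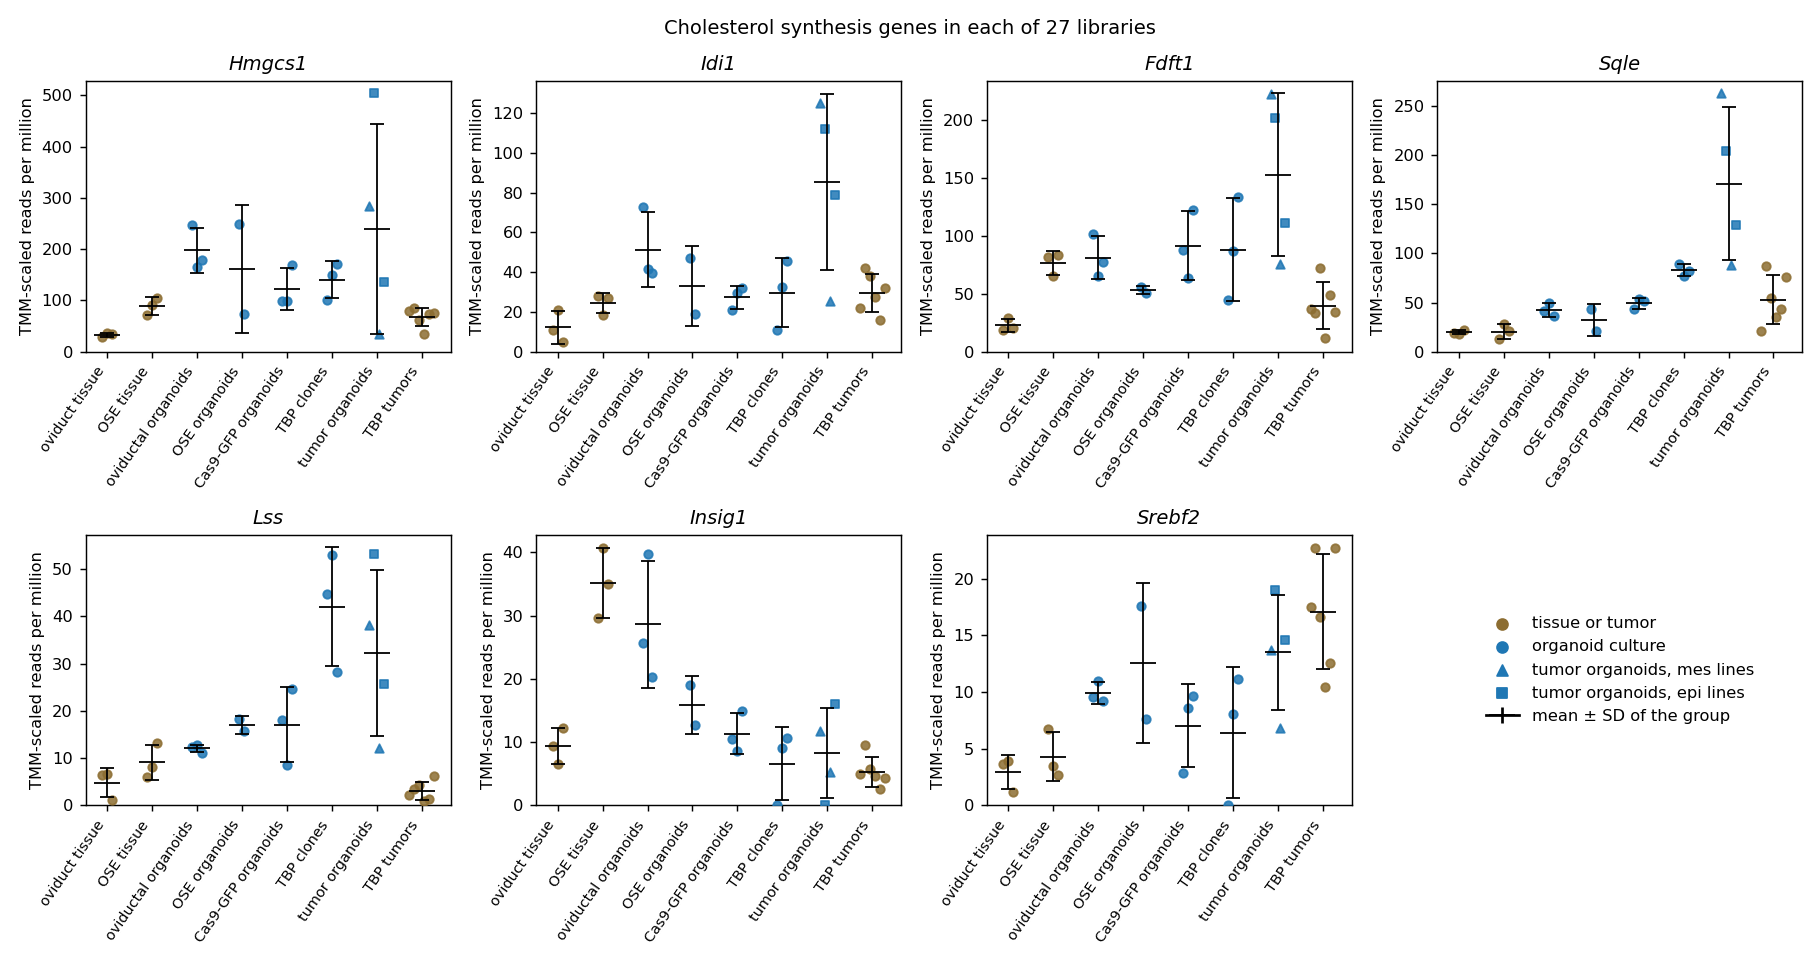
Level of each of the 7 genes (vertical axis, TMM-scaled CPM, linear from 0) in every library of the 8 groups (horizontal axis); points are libraries, black bars the group mean ± SD. Oviduct tissue has the lowest Hmgcs1 mean, with libraries at 28.3 to 36.8, tumor organoids reach highest for Hmgcs1, Idi1, Fdft1 and Sqle, and Insig1 is highest in OSE tissue.

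The 7 genes were first compared between the tissues of origin. Oviduct tissue had low levels of the enzymes. Hmgcs1 measured 28.3, 36.8 and 34.2 CPM in its 3 libraries, against 71.9, 90.8 and 105.6 in OSE tissue. The groups did not overlap, and the fitted level was 2.71-fold higher in OSE tissue (log2 1.44 ± 0.21 SE, adjusted p = 4.27e-05). Fdft1 measured 18.9, 28.9 and 20.8 in oviduct tissue and 82.1, 65.2 and 83.3 in OSE tissue, 3.41-fold higher (log2 1.77 ± 0.23, adjusted p = 1.23e-05). Insig1, the sterol-sensing brake, stood apart as clearly, at 9.43, 6.58 and 12.2 in oviduct tissue and 29.6, 40.8 and 35.0 in OSE tissue (log2 1.85 ± 0.30, adjusted p = 0.000116). Idi1 was also higher (log2 1.04 ± 0.38, adjusted p = 0.0310), but its groups overlapped and the call was lost on leaving out any of oviduct tissue 1, oviduct tissue 3, OSE tissue 1 or OSE tissue 3, where the adjusted p was 0.0769 to 0.131, and with DESeq2 (0.116). Sqle did not pass the test: its mean was 19.8 ± 1.95 (SD, n = 3) in oviduct tissue and 20.4 ± 7.63 in OSE tissue.

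Thus 4 of the 5 members tested were higher in OSE tissue and 0 lower, where 24.3% of all genes tested were called higher and 26.9% lower. Lss (1 to 25 reads) and Srebf2 (1 to 8 reads) had too few reads in these libraries to be tested. Of the 16 other enzymes of the pathway, 15 were tested and 10 were higher, 0 lower, with a median log2 difference of 1.59 against -0.00 over all genes. Msmo1, which acts in removing methyl groups from the sterol ring, was 4.33-fold higher. The largest was Hsd17b7, at 160.5 ± 45.4 in OSE tissue and 6.87 ± 3.60 in oviduct tissue (24.2-fold, adjusted p = 1.76e-08); it acts in cholesterol synthesis and also makes estradiol in the corpus luteum. Among those that did not pass the test were Pmvk, Tm7sf2, Lbr and Ebp. Scarb1, the receptor for high-density lipoprotein, was 6.46-fold higher. Of 14 genes for sterol sensing and uptake, 11 were tested, 5 were higher and 1, Vldlr, lower.

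The tissue labelled OSE carried markers of steroid-making and granulosa cells. All 7 steroidogenic markers in the table were higher there, summing to 6425 to 7961 CPM against 78.4 to 265.8 in oviduct tissue. Hsd3b1, which makes progesterone, alone averaged 5597 ± 601 (SD, n = 3). The 7 granulosa markers were all higher as well, summing to 3855 to 4884 against 31.9 to 105.1. By contrast, 7 of 8 epithelial markers were lower, summing to 450.0 to 540.7 against 1724 to 2130. Of 10 proliferation genes, 9 were higher, with sums of 1378 to 1416 against 143.0 to 328.9. The part of these cells in the higher levels of the members was not tested.

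The same 7 genes were then compared between organoids and the tissue they came from. In the oviduct, 6 of 7 were higher in organoids, where 18.7% of all genes tested were called higher and 24.2% lower. Hmgcs1 rose most, from 28.3 to 36.8 in tissue to 247.5, 165.9 and 179.1 in organoids (5.95-fold, log2 2.57 ± 0.22, adjusted p = 3.48e-06). Idi1 measured 10.9, 21.1 and 4.89 in tissue and 73.0, 41.5 and 39.4 in organoids (log2 2.08 ± 0.41, adjusted p = 0.00150). For each of the 7 members the lowest organoid library lay above the highest tissue library, which held for 25.9% of all genes tested.

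Fdft1 reached 101.6, 65.2 and 77.4 CPM in oviductal organoids (log2 1.85 ± 0.26, adjusted p = 0.000132). Sqle rose less, to 41.5, 49.9 and 36.1 (log2 1.08 ± 0.27, adjusted p = 0.00597). Lss, at 12.4, 12.7 and 11.2 in organoids and 6.53, 6.58 and 1.22 in tissue, missed the threshold narrowly (log2 1.25 ± 0.48, adjusted p = 0.0523). Both regulators were higher. Insig1 measured 25.7, 39.8 and 20.3 in organoids (log2 1.56 ± 0.39, adjusted p = 0.00616). Srebf2 measured 9.19 or more in each organoid library, against 3.63, 3.95 and 1.22 in tissue (log2 1.66 ± 0.48, adjusted p = 0.0149). The Srebf2 call rested on 1 to 5 reads per tissue library and was lost without oviduct tissue 1 or without oviduct tissue 3 (adjusted p = 0.0570 and 0.0601) and with DESeq2 (0.114).

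Of the 15 other enzymes tested in the oviduct, 10 were higher and 0 lower, with a median of 1.69 against -0.02 over all genes. With no filter on low counts, or in 1 fit of all 27 libraries, 1 was lower. Mvk, which had too few reads to be tested, averaged 0.696 CPM in organoids and 5.86 in tissue. Cyp51 rose 5.90-fold, to a mean of 103.9, and Stard4, a cholesterol carrier of the cytosol, 6.39-fold. Genes for export fell, Abca1 by 2.05 and Mylip by 2.99 on the log2 scale, 5 of 8 tested genes of export and storage being lower and 0 higher. Fibroblast markers summed to 3807 to 7022 in oviduct tissue and to 0 to 5.08 in the organoids, with Col1a1, Col1a2 and Lum at 0 in all 3 organoid libraries, and smooth muscle markers to 5573 to 6991 against 0.656 to 6.68; epithelial markers summed to 1724 to 2130 and 5931 to 7853. The part of the change of cell types was not tested. Proliferation genes, at 199.7 to 385.3 in organoids against 143.0 to 328.9, were 0 of 8 tested higher.

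In OSE the members did not rise together. None of the 7 was called higher in OSE organoids and 1, Insig1, was lower, where 14.5% of all genes tested were called higher and 18.6% lower. Insig1 measured 19.1 and 12.7 in the 2 organoid libraries against 29.6 to 40.8 in the tissue (log2 -1.13 ± 0.34, adjusted p = 0.0399). That call was lost with DESeq2 (adjusted p = 0.0684) and without any 1 of the 3 tissue libraries (0.0913 to 0.147). The 2 OSE organoid libraries differed from each other: Hmgcs1 was 248.8 in the first and 72.9 in the second, Idi1 47.3 and 18.7, Sqle 43.5 and 20.8, and Srebf2 17.6 and 7.60. Without the second library, the log2 differences of these 4 genes from OSE tissue were 1.47 (Hmgcs1), 0.92 (Idi1), 1.13 (Sqle) and 2.07 (Srebf2). Without the first, Hmgcs1 stood at -0.24 and Idi1 at -0.355. In both cases 1 organoid library was left, so that these differences are not replicated. Proliferation genes summed to 780.7 in the first and 253.3 in the second. Fdft1 was close in both, at 55.7 and 50.7, below the 65.2 to 83.3 of the tissue (log2 -0.51 ± 0.24, adjusted p = 0.145).

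Of the 16 other enzymes, 2 were higher in OSE organoids, among them Ebp (log2 1.54), and 1 lower, Hsd17b7, which fell by 3.11 on the log2 scale. The counts changed when either OSE organoid library was left out, but these fits rest on 1 organoid library and their counts are not given. With library totals 3 were lower, where 2785 of 10232 genes tested were called lower. Without OSE tissue 1 or OSE tissue 2, 1 was higher. The median was 0.09 against -0.07 over all genes. All 7 steroidogenic and all 7 granulosa markers fell in the same comparison, with Hsd3b1, Cyp17a1, Lhcgr, Fshr and Cyp19a1 at 0 in both OSE organoid libraries; their part in the members' values was not tested.

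**Figure D2:**
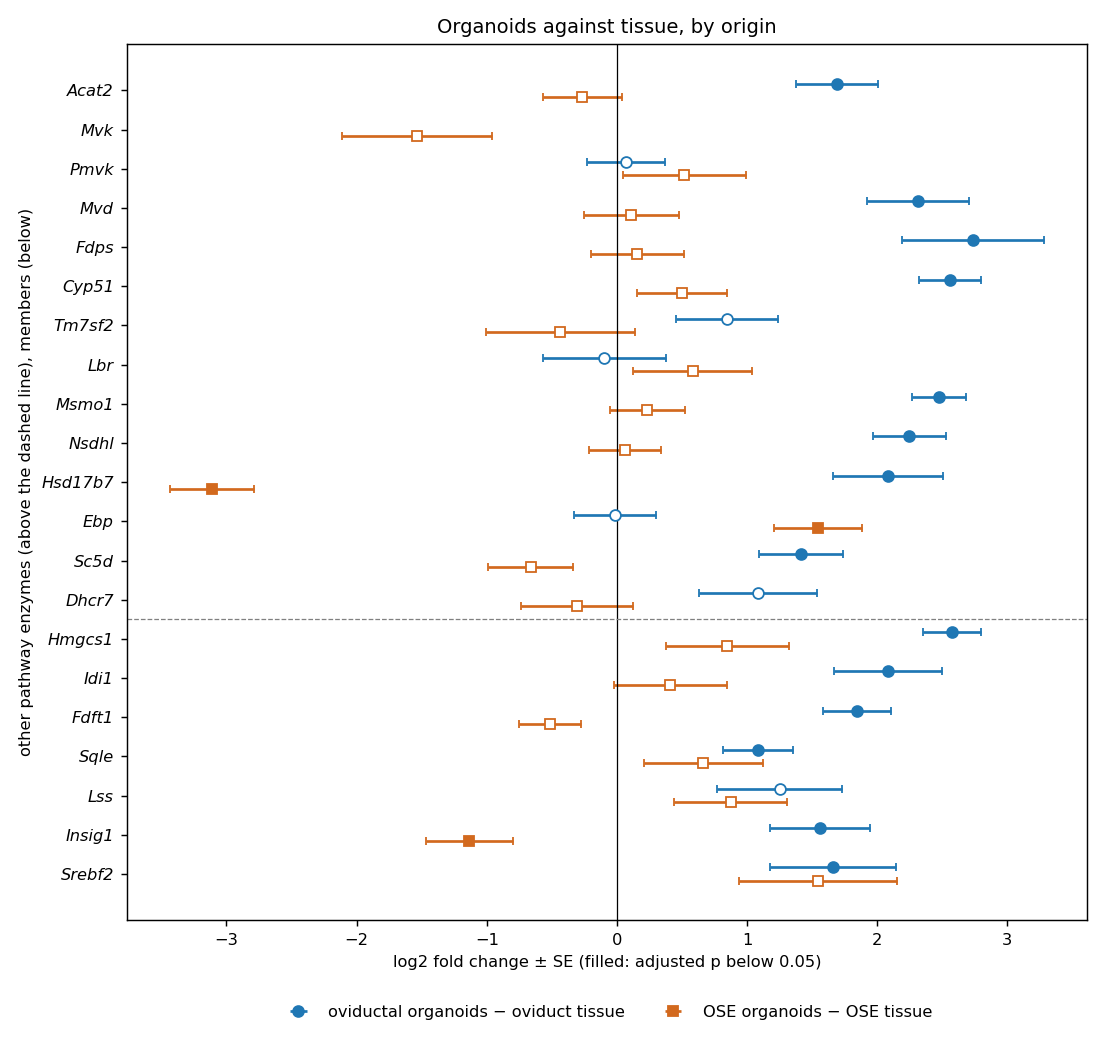
Log2 fold change ± SE (horizontal axis) of organoids against tissue for 14 of the 16 other enzymes (above the dashed line) and the 7 members (below), for oviduct (circles) and OSE (squares); filled symbols have an adjusted p below 0.05. In the oviduct 8 of the enzymes drawn and 6 members are filled on the right of 0, in OSE Ebp alone of those drawn is.

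The difference between the 2 origins was tested as an interaction, the organoid minus tissue difference in the oviduct minus that in OSE. The same quantity is the OSE minus oviduct difference in tissue plus the oviduct minus OSE difference in organoids. It therefore includes the difference between the tissues, whose part was not tested. Among all genes, 5% were called positive and 6.68% negative. Of the 7 members, 3 were positive: Insig1 (log2 2.80 ± 0.52, adjusted p = 0.00495), Fdft1 (2.46 ± 0.36, adjusted p = 0.00113) and Hmgcs1 (1.83 ± 0.54, adjusted p = 0.0465). The Hmgcs1 call held without either OSE organoid library and was lost on leaving out any of the other 9 libraries (adjusted p = 0.0623 to 0.116). Idi1 had a like estimate that did not pass (1.78 ± 0.67, adjusted p = 0.108), though it passed without the first OSE organoid library (2.56, adjusted p = 0.00844). Without an OSE organoid library, the 1 left was assumed to vary like the other groups. Sqle (0.53 ± 0.51), Lss (0.50 ± 0.67) and Srebf2 (0.24 ± 0.79) did not pass. Of the 16 other enzymes 9 were positive and 0 negative, with a median of 2.11 against 0.04 over all genes, led by Hsd17b7 at 5.30. In 1 fit of all 27 libraries 5 were positive.

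Between the 2 kinds of organoid no member was called, in a comparison with 0% of all genes called higher and 0.0864% lower. By unadjusted p below 0.05 no member passed either, with edgeR or with DESeq2. At that threshold edgeR had 462 higher and 598 lower of 9257 genes tested, and DESeq2 503 higher and 692 lower of 14447. Means in OSE and oviductal organoids were 160.9 ± 124.3 and 197.5 ± 43.8 for Hmgcs1 and 32.1 ± 16.1 and 42.5 ± 6.98 for Sqle. Fdft1 (-0.64 ± 0.29) and Insig1 (-0.88 ± 0.43) had both OSE organoid libraries below all 3 oviductal ones, and Lss (0.47 ± 0.38) both above. Such separation was found in 15.4% of all genes tested downward and 14.3% upward.

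Organoids of Cas9-GFP mice were compared with those of C57BL/6 mice, both unedited. Here 13% of all genes tested were called higher and 13.3% lower, and of the 7 members 0 were higher and 2 lower. Insig1 measured 8.63 to 14.97 CPM against 20.3 to 39.8 (log2 -1.27 ± 0.38, adjusted p = 0.0283). Idi1 measured 21.0, 29.4 and 32.1 against 39.4 to 73.0 (log2 -0.91 ± 0.31, adjusted p = 0.0482). Neither call was stable. With DESeq2 the adjusted p was 0.0719 for Insig1 and 0.107 for Idi1, and with library totals alone 0.0511 and 0.112. Leaving out oviductal organoids 1, or any 1 of the Cas9-GFP libraries, ended the Idi1 call (0.0712 to 0.193), and leaving out oviductal organoids 2, Cas9-GFP 1 or Cas9-GFP 2 that of Insig1 (0.0774 to 0.107). Hmgcs1 was 99.4, 98.4 and 170.0 against 165.9 to 247.5 (log2 -0.67 ± 0.24, adjusted p = 0.0601). Without the third Cas9-GFP library it was called lower (-0.98, adjusted p = 0.0154). Fdft1, Sqle, Lss and Srebf2 overlapped. Among the other enzymes tested, Nsdhl (-1.81) and Mvd (-1.21) were lower, and Ebp (0.85) and Acat2 (0.76) higher. Without oviductal organoids 2, oviductal organoids 3 or Cas9-GFP 3, 0 were higher. Only 1 was lower without oviductal organoids 1, Cas9-GFP 1 or Cas9-GFP 3, with DESeq2, with library totals and in 1 fit of all 27 libraries. Markers of other cell types and states moved with this comparison. Ovgp1, the oviduct's secreted glycoprotein, averaged 79.9 ± 14.4 CPM in Cas9-GFP organoids and 19158 ± 4201 in C57BL/6 organoids (SD, n = 3 each). The 5 ciliated markers, 3 of 3 tested lower, summed to 3.45 to 53.5 against 99.2 to 264.0, and the 8 epithelial markers, 4 of them lower and 1 higher, to 4480 to 4917 against 5931 to 7853. Myeloid markers, 2 of 2 tested higher (Cd68 and Csf1r), summed to 27.8 to 44.9 against 0.954 to 5.25, with Lyz2, C1qa and C1qb at 0 in both groups. Proliferation genes, 3 of 8 tested higher, summed to 252.1 to 641.1 against 199.7 to 385.3. The part of these in the lower Insig1 and Idi1 was not tested.

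TBP clones were set against Cas9-GFP organoids, the unedited lines of the same background. Of the 6 members tested 0 were called, as were 0.389% of all genes higher and 0.428% lower. In all, 2 members passed an unadjusted p below 0.05 with edgeR and 1 with DESeq2. Sqle measured 89.4, 77.1 and 82.1 CPM in the clones, all above the 43.0 to 53.5 of the Cas9-GFP lines (log2 0.74 ± 0.33, adjusted p = 0.479 by edgeR). Lss measured 44.7, 53.0 and 28.3 against 8.63 to 24.6 (1.21 ± 0.47, adjusted p = 0.393 by edgeR). Non-overlap upward was found in 6.84% of genes tested. TBP clone 1 gave only 8 reads of Sqle and 4 of Lss, and 0 of Insig1 and Srebf2, so that it limits this group. None of the 16 other enzymes was called.

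As a group, the 4 tumor organoid lines had the highest mean levels of Hmgcs1, Idi1, Fdft1 and Sqle in the series and also the widest SD. Hmgcs1 measured 284.7 in T1-mes, 503.8 in T2-epi, 34.0 in T3-mes and 135.9 CPM in T4-epi. T3-mes and T4-epi thus lay below all 3 oviductal organoid libraries for Hmgcs1 (165.9 to 247.5), and the high mean rested on T1-mes and T2-epi. T1-mes and T2-epi were high and T3-mes low for each of the enzymes. The study shows T1-mes and T2-epi as tumors from opposite sides of the same mouse, injected with the same clone, so that they are not separate animals. Sqle was 262.4 in T1-mes and 204.2 in T2-epi, against 87.8 in T3-mes and 128.6 in T4-epi. Idi1 was 125.3 and 112.1, against 25.7 and 78.6. Lss followed at 38.3 and 53.2, against 12.1 and 25.7, and Srebf2 at 13.7 and 19.0, against 6.79 and 14.6. Over the 16 other enzymes the summed level ran from 777.6 in T3-mes through 1914 in T4-epi and 2402 in T1-mes to 3616 in T2-epi.

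T2-epi had 0 reads of Insig1, which allows up to 1.42 CPM, while its Hmgcs1 was the highest of all 27 libraries. The other 3 lines had 26, 11 and 33 reads of Insig1, or 11.8, 5.34 and 16.0 CPM. Across the 27 libraries Insig1 followed Hmgcs1 weakly on the log2 scale (Pearson r = 0.07, Spearman rho = 0.31), while Hmgcs1 and Fdft1 went together (r = 0.79) as did Hmgcs1 and Idi1 (r = 0.76). These points share depth and group differences and are given as a description.

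The mes lines were compared with the epi lines, 2 against 2. None of the 7 members was called in either direction, where 1% of all genes were called higher and 0.123% lower. By unadjusted p below 0.05 no member passed with edgeR or with DESeq2 in this unpaired comparison. At that threshold edgeR had 883 higher and 495 lower of 9775 genes tested, and DESeq2 895 higher and 526 lower of 14306. With the lines that share a sample label taken as a block, 1 member was lower at an unadjusted p below 0.05 with edgeR. In that fit 606 of 9775 genes tested were lower and 874 higher at the same threshold. The 2 mes lines lay on either side of T4-epi for Hmgcs1, whose difference between the groups was -1.01 ± 1.02 on the log2 scale. Without T1-mes, the log2 differences were -3.24 for Hmgcs1, -1.90 for Idi1 and -0.932 for Sqle. T3-mes was then the lone mes line, so that these differences are not replicated. T3-mes also had the lowest epithelial sum of the lines, 383.2 against 3733 to 5532, the highest fibroblast sum, 7532 against 31.3 to 3120.5, and the lowest proliferation sum, 978.9 against 1832 to 2212. The part of these in its low enzyme levels was not tested.

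TBP tumors had lower levels of the enzymes than the tumor organoids, which had been grown with Nutlin-3a. Culture, Nutlin-3a and extraction cannot be told apart in this comparison. Of the 7 members 5 were lower and 0 higher, where 12.3% of all genes tested were called lower and 15.1% higher. Lss fell furthest. It gave 1 to 13 reads in each tumor, 0.946 to 6.14 CPM (median 2.84, n = 6), against 12.1 to 53.2 in the organoids (log2 -3.35 ± 0.52, adjusted p = 0.00112). Fdft1 ranged from 12.3 to 72.8 in the tumors (median 35.7) against 76.2 to 222.8 (log2 -1.91 ± 0.43, adjusted p = 0.00807). Sqle ranged from 20.7 to 87.4 (median 49.1) against 87.8 to 262.4 (log2 -1.68 ± 0.40, adjusted p = 0.0115). These 3 genes had every tumor below every organoid line, as did 8.98% of all genes tested.

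Hmgcs1 ranged from 35.0 to 84.8 in the tumors (median 74.4) against 34.0 to 503.8 in the tumor organoids, the overlap being T3-mes alone (log2 -1.80 ± 0.55, adjusted p = 0.0316). Its call was fragile, lost without T1-mes, without T2-epi or without any 1 of the 6 tumors (adjusted p = 0.0505 to 0.129). Idi1 ranged from 16.1 to 41.9 against 25.7 to 125.3 (log2 -1.52 ± 0.41, adjusted p = 0.0180) and was lost without T1-mes or T2-epi (0.0564 and 0.0520). Leaving out T1-mes, or T2-epi, brought the count of members called lower to 3. Chosen after the data were seen, fits with the epi lines alone and the mes lines alone called 5 and 2 members lower. Among all genes tested, these fits called 1365 of 11253 and 699 of 11278 lower. The regulators gave no call: Insig1 ranged from 2.58 to 9.61 in tumors (log2 -0.66 ± 0.75), and Srebf2 from 10.4 to 22.7 against 6.79 to 19.0 (log2 0.34 ± 0.33, adjusted p = 0.477).

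Of the 16 other enzymes, 13 were lower in tumors than in tumor organoids and 0 higher, with a median of -2.02 against 0.02 over all genes. Against the mes lines alone 7 were lower, where 699 of 11278 genes tested were called lower. Against the epi lines alone 13 were lower, where 1365 of 11253 genes were. Msmo1 measured 72.4 on average against 473.1. Lbr, Hsd17b7 and Ebp did not pass. Stard4 (-2.20) and Insig2 (-1.01) were also lower and Scap (0.93) higher. Genes of export and storage went both ways, with 4 of 8 tested higher and 2 lower. Apoe, a lipoprotein component that macrophages secrete, averaged 1524 ± 642 (SD, n = 6) in tumors and 2.46 ± 2.40 (n = 4) in the organoids, and Abca1 330 ± 110 against 27.3 ± 37.2. Myeloid markers summed to 425.5 to 2169 in tumors and 4.85 to 34.5 in tumor organoids, with 6 of 7 higher and Lyz2, C1qa and C1qb at 0 in all 4 organoid lines. Fibroblast markers summed to 9650 to 56973 against 31.3 to 7532, and epithelial markers to 194.0 to 3316 against 383.2 to 5532. The part of host and stromal cells in the lower enzyme levels was not tested. Within the tumors, the 2 with the highest epithelial sums were tumor 1 (2534) and tumor 3 (3316). Their summed member levels were 182.9 and 253.7, inside the 125.8 to 283.2 of the other 4. Fdft1 was highest in tumor 3, at 72.8 CPM against 12.3 to 49.4 in the rest, while no other member was highest in tumor 1 or tumor 3. The relation of member levels to epithelial sums was not tested.

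**Figure D3:**
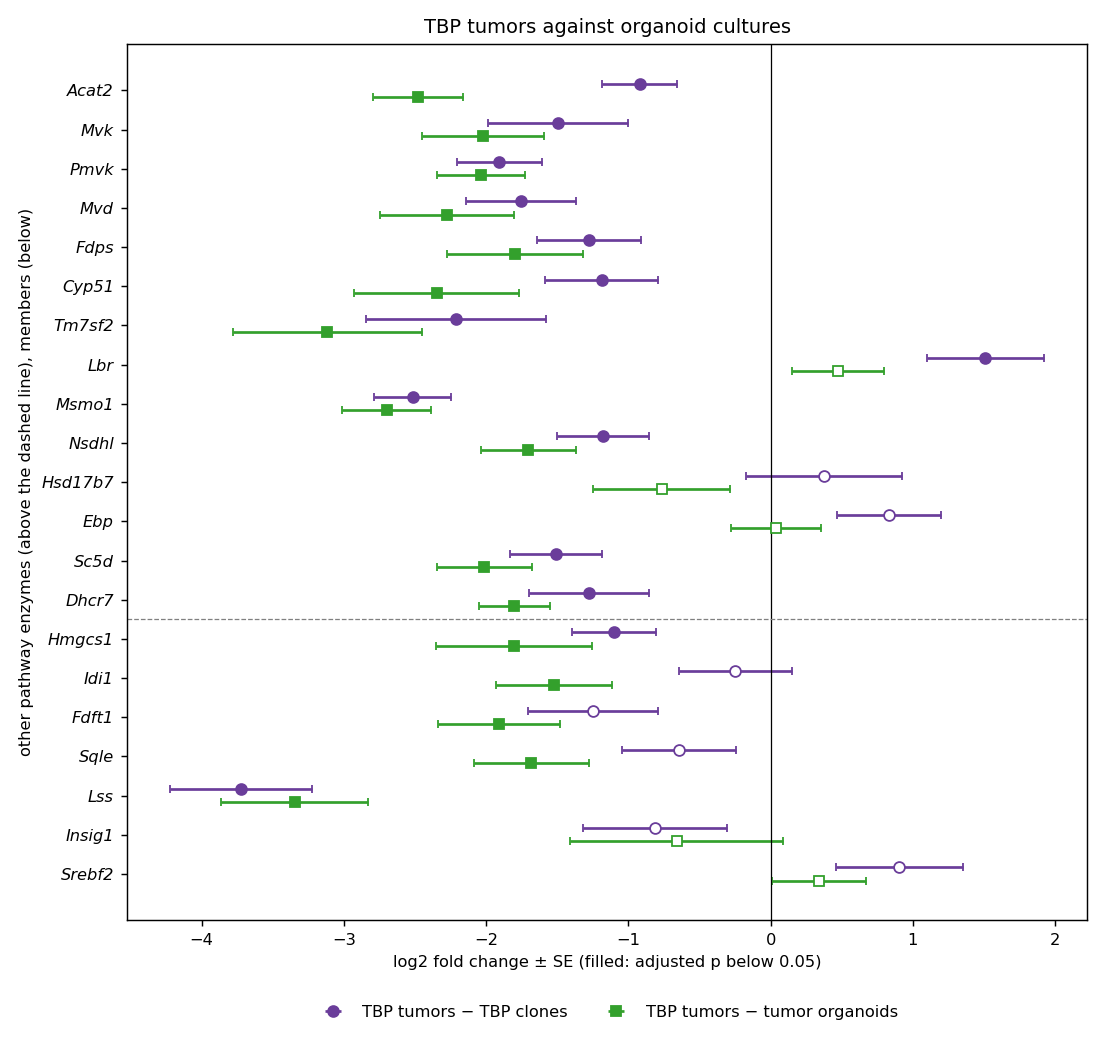
Log2 fold change ± SE (horizontal axis) of TBP tumors against TBP clones (circles) and against tumor organoids (squares), for 14 of the 16 other enzymes (above the dashed line) and the 7 members (below); filled symbols have an adjusted p below 0.05. Most enzymes lie left of 0 in both, Lss furthest at -3.72 and -3.35, and Srebf2 lies right of 0 without passing.

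Against the TBP clones, the cultures from which the tumors had been grown, 2 members were lower in tumors and 0 higher, where 11.7% of all genes were called lower and 20.1% higher. Lss stood at 44.7, 53.0 and 28.3 CPM in the clones (log2 -3.72 ± 0.50, adjusted p = 0.000417). Hmgcs1 stood at 100.6, 150.5 and 170.4 against 35.0 to 84.8 (log2 -1.10 ± 0.29, adjusted p = 0.0153), a call lost without TBP clone 2 or without TBP clone 3 (adjusted p = 0.0634 and 0.0809), which left 1 member called. Fdft1 missed the threshold (log2 -1.25 ± 0.46, adjusted p = 0.0572) and passed it without the shallow TBP clone 1 (-1.48, adjusted p = 0.0393) or without tumor 3 (-1.53, adjusted p = 0.0176). Idi1 (-0.25 ± 0.40), Sqle (-0.64 ± 0.40), Insig1 (-0.81 ± 0.51) and Srebf2 (0.91 ± 0.45) did not pass. Of the 16 other enzymes 13 were lower, a count that dropped to 5 without TBP clone 2, to 8 without TBP clone 3 and to 8 with library totals. In the same comparison 1 was higher, a call lost without TBP clone 2: Lbr, which is also a protein of the inner nuclear membrane (log2 1.51, adjusted p = 0.0170). Both comparisons use the same 6 tumors.

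Set against normal oviduct tissue, the tumors were higher in 4 of the 6 members tested and lower in 0, where 23.7% of all genes were called higher and 22.4% lower. Srebf2 rose most, from 1.22 to 3.95 CPM in tissue to 10.4 to 22.7 in tumors (median 17.0), with no overlap (log2 2.44 ± 0.44, adjusted p = 0.00144). In the tissue it rested on 1 to 5 reads per library. Sqle rose 2.59-fold (log2 1.37 ± 0.43, adjusted p = 0.0252), Idi1 2.36-fold (1.24 ± 0.45, adjusted p = 0.0461) and Hmgcs1 2.01-fold (1.01 ± 0.27, adjusted p = 0.0121), each with overlapping groups. Leaving out oviduct tissue 1 left Srebf2 as the only call, and leaving out oviduct tissue 3 left 2, Srebf2 and Hmgcs1. The Idi1 call was also lost without tumor 2, 3, 4 or 6 (adjusted p = 0.0613 to 0.0747), and that of Sqle without oviduct tissue 2 (0.0831). Fdft1 (0.79 ± 0.46) passed only without tumor 4 (0.97, adjusted p = 0.0425), and Insig1 (-0.90 ± 0.42) was called lower only without tumor 2 (-1.11, adjusted p = 0.0420). Lss, at 0.946 to 6.14 in tumors and 1.22 to 6.58 in tissue, was not tested. Proliferation genes, 8 of 10 higher, summed to 616.9 to 1155 in tumors against 143.0 to 328.9. Fibroblast markers, 3 of 6 higher, summed to 9650 to 56973 against 3807 to 7022, and myeloid markers, 7 of 7 higher, to 425.5 to 2169 against 181.6 to 217.5. Smooth muscle markers, 5 of 6 lower, summed to 205.4 to 1150 against 5573 to 6991. The part of these cells in the members' levels was not tested. Of 15 other enzymes tested 8 were higher and 0 lower, among them Fdps (6.19-fold), Cyp51 (5.42-fold) and Lbr (3.54-fold).

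**Figure D4:**
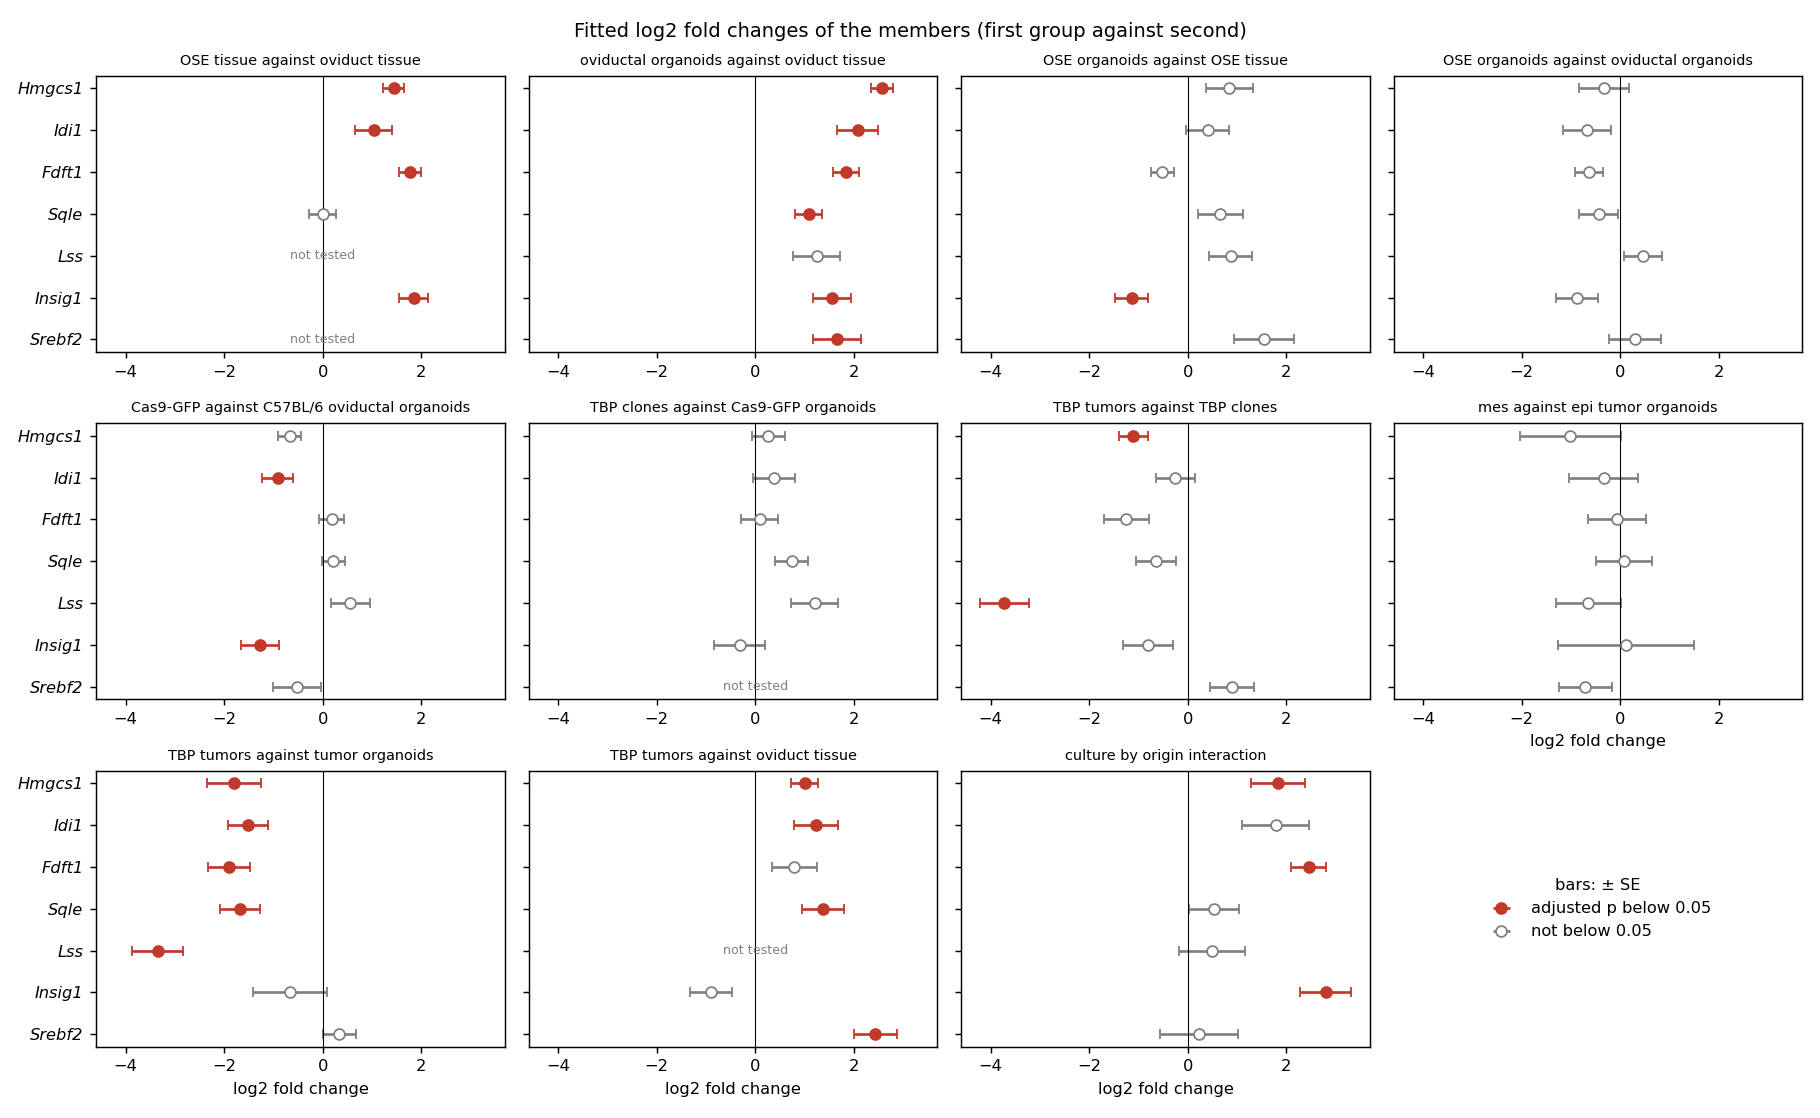
Log2 fold change ± SE (horizontal axis) of the 7 members in the 10 comparisons of groups and the interaction; red filled points have an adjusted p below 0.05, and members with too few reads are written as not tested. The oviductal organoids against oviduct tissue panel has 6 red points right of 0 and the TBP tumors against tumor organoids panel 5 left of 0.

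Seen by group, the order of mean Hmgcs1 levels ran from oviduct tissue (33.1 ± 4.38 CPM) through TBP tumors (68.2 ± 17.9), OSE tissue (89.5 ± 16.9), Cas9-GFP organoids (122.6 ± 41.1), TBP clones (140.5 ± 36.0), OSE organoids (160.9 ± 124.3) and oviductal organoids (197.5 ± 43.8) to tumor organoids (239.6 ± 204.0). Neighbours from Cas9-GFP organoids upward lay within each other's SD. Insig1 had another order, from TBP tumors (5.32 ± 2.35) to OSE tissue (35.1 ± 5.57). Srebf2 ran from oviduct tissue (2.93 ± 1.49) to TBP tumors (17.1 ± 5.07), the group in which Lss was lowest (3.08 ± 1.99).

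Across the 27 libraries and 6288 genes with a mean of at least 20 CPM, the genes most like the mean of the 7 members on the log2 scale were Mvd (Pearson r = 0.88), Stard4 (0.87), Sc5d (0.85), Bri3bp (0.84) and Msmo1 (0.83, in the table as Sc4mol). Mvd, Sc5d and Msmo1 encode enzymes of the pathway. Without TBP clone 1 the first 4 were Msmo1 (0.92), Sc5d, Stard4 and Mvd. Lbr stood far down the list, at rank 3091 (r = 0.11).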

How the data were processed

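RNA of 27 libraries, filed under 11 sample labels, had been sequenced by CEL-Seq2 with 75-bp paired-end reads. The authors mapped reads with BWA (GRCm38) and deposited 1 table of raw counts per gene: unique mappings, in the direction of transcription, unique molecular identifiers not collapsed, so amplified copies count separately. They had excluded 1 OSE organoid line as contaminated. The spike-in entry (1 read) was left out, leaving 18305 genes.

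Each comparison was fitted on its own libraries by quasi-likelihood in edgeR 4.0.16 (R 4.3.3), with TMM factors, filterByExpr, Benjamini-Hochberg adjustment over all genes tested and a threshold of 0.05. SE is the log2 fold change over the root of F. Alternatives were DESeq2 1.42.0, RLE factors, library totals, no filter, a joint fit, each library left out and a replicate block. Likeness used log2 CPM (prior count 2). The tests were checked on simulated counts. Of 33 replicate pairs the most alike still differed, with a chi-square of 2.53 per gene.

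Named genes are the 7 members, genes of written lists and the 5 most alike. Members and lists were chosen with earlier results of these data known. Insl3, Amh, Hba-a2 and Hbb-bt did not match a name in the table. Some genes of these lists are counted but not reported here by name.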

Additional observations from a re-analysis of the deposited data

Results flagged for a closer look

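The organoid minus tissue difference was larger in the oviduct than in OSE for 3 members, by a tested interaction: Insig1 (log2 2.80), Fdft1 (2.46) and Hmgcs1 (1.83). This quantity includes the difference between the tissues. In OSE tissue the same 3 were higher than in oviduct tissue, by log2 1.85, 1.77 and 1.44, and no member was called between the 2 kinds of organoid. Insig1 rose by 1.56 on the log2 scale from oviduct tissue to oviductal organoids and fell by 1.13 from OSE tissue to OSE organoids. Within the tumor organoids and the TBP tumors, 14 sets of values were searched for a library far from the others, and none passed Dixon's limit, the 0 reads of Insig1 in T2-epi included.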

How the results depend on the processing

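Among the values of single members under an alternative, 800 kept direction and call, 73 lost the call, 17 gained it and 30 reversed; the causes were not tested. In 1 fit of all 27 libraries the members called were 1 higher in OSE tissue, 0 lower and 1 higher in OSE organoids against OSE tissue, 0 lower in Cas9-GFP organoids, 2 higher in tumors against oviduct tissue and 1 in the interaction. That fit also ended the calls of Sqle (adjusted p = 0.0892) and Insig1 (0.0949) in oviductal organoids against tissue and of Hmgcs1 in tumors against clones (0.0646). RLE factors ended those of Hmgcs1 in the interaction (0.0588) and of Idi1 in tumors against oviduct tissue (0.0537). DESeq2 called 0 lower in OSE organoids against OSE tissue and 0 in Cas9-GFP organoids; library totals called 2 and 0. Library totals moved the median of all genes to 0.37 (OSE tissue against oviduct tissue), -0.12 (oviductal organoids against tissue), -0.50 (OSE organoids against tissue), 0.21 (Cas9-GFP), 0.39 and 0.40 (tumors against clones and oviduct tissue) and 0.27 (interaction). With the mes lines alone, 2 members were lower in tumors than in tumor organoids, where 699 of 11278 genes tested were called lower. With the epi lines alone Srebf2 was -0.001. Both fits were chosen after seeing the data. Sqle in OSE tissue against oviduct tissue turned to 0.026 (DESeq2), 0.368 (library totals), 0.061 (no filter) and 0.001 (all 27 libraries), and Idi1 in OSE organoids against OSE tissue to -0.036 (library totals).

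With each library left out in turn, the members called ranged from 0 to 2 lower (Cas9-GFP), 1 to 3 lower (tumors against clones) and 3 to 5 lower (tumors against tumor organoids). In tumors against oviduct tissue they ranged from 1 to 4 higher and 0 to 1 lower. For OSE organoids against OSE tissue and for mes against epi, such fits can leave 1 library in a group, and no range of calls is given. Cas9-GFP kept 1 call without oviductal organoids 1 or 2, and 0 without Cas9-GFP 1 or 2. Log2 differences that changed sign ranged from -0.198 to 0.256 for Sqle (OSE tissue against oviduct tissue), from -0.238 to 1.471 for Hmgcs1 and -0.355 to 0.917 for Idi1 (OSE organoids against OSE tissue), from -1.441 to 0.295 for Hmgcs1, -1.029 to 0.003 for Sqle and -0.377 to 0.791 for Srebf2 (OSE against oviductal organoids), from -0.075 to 0.364 for Fdft1 (Cas9-GFP), from -0.276 to 0.313 for Fdft1 (clones), from -0.438 to 0.111 for Idi1 (tumors against clones) and from -0.282 to 0.869 for Srebf2 (interaction). In mes against epi they ranged from -3.236 to 0.184 for Hmgcs1, -1.9 to 0.386 for Idi1, -1.047 to 0.502 for Fdft1, -0.932 to 0.649 for Sqle and -0.936 to 7.195 for Insig1.

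Libraries of different groups that share a replicate number correlated in their deviations at 0.0104 to 0.139, so the numbers were not taken as pairs. The replicate block called 1 member lower in Cas9-GFP organoids and turned Sqle in mes against epi to -0.083. Depth limits Lss, Srebf2 and Insig1 most, and TBP clone 1 throughout.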

Other observations

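Genes of fatty acid synthesis, which the related factor SREBP-1 controls, were counted beside those of cholesterol synthesis. Of 11 such genes, 10 were tested between oviductal organoids and oviduct tissue, where 2 were higher and 1 lower with a median log2 difference of 0.35, where 18.7% of all genes tested were called higher and 24.2% lower. Between TBP tumors and tumor organoids 0 of 10 were higher and 3 lower, with a median of -0.85, beside -2.02 for the 16 other cholesterol enzymes, where 15.1% of all genes tested were called higher and 12.3% lower. The difference between the lists was not tested.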
